A study of Mus musculus with 72 samples.

Results

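The genes described here encode the subunits of the 5 complexes of oxidative phosphorylation, in control and Nup133-deficient mouse embryonic stem cells on their way to neuroectoderm. Members were the protein-coding genes whose symbol marks them as a subunit of complex I (mt-Nd and Nduf symbols), complex II (Sdha to Sdhd), complex III (mt-Cytb and Uqcr), complex IV (mt-Co and Cox4 to Cox8) or complex V (mt-Atp and Atp5). The rule found 97 genes among 21647 protein-coding genes, 13 of them encoded by mitochondrial DNA and 84 by nuclear chromosomes. Assigned by symbol alone, complex I has 7 mitochondrial and 37 nuclear members and complex II 4 nuclear members. Complex III has 1 and 8, complex IV 3 and 18, and complex V 2 and 17. The symbols place Ndufa4 and Ndufa4l2 in complex I here and below, and membership of the assembled complexes was not checked. Another 10 genes whose symbols match are annotated as pseudogenes and were not counted.

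Complexes I to IV pass electrons from NADH and succinate to oxygen, complexes I, III and IV pump protons across the inner mitochondrial membrane as they do so, and complex V uses the proton gradient to make ATP. All of them except complex II combine subunits translated inside the mitochondrion with subunits made in the cytosol, so their assembly draws on 2 genomes. The mitochondrial genes are transcribed from both strands as long precursors and cut into single messages, whereas each nuclear subunit has its own promoter. Pluripotent stem cells are known for a high rate of glycolysis, and the use of respiration changes as they differentiate.

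Messenger RNA was measured at day 0, day 2 and day 3, with 3 biological samples in each of 6 groups, and 4 technical libraries were added up per sample. The comparison asks what the loss of Nup133, a subunit of the Y-complex of the nuclear pore, changes in pluripotent cells and early in differentiation. Control samples were HM1 in 2 biological replicates (Nup133+/+, 40 chromosomes, XY) and the blastocyst-derived line 1A4 (Nup133+/+, Sox1gfp/+, 40 chromosomes, XY). Knockout samples were lines 14 and 19 (both Nup133-/-, XY, made from HM1 with CRISPR/Cas9, labelled with 40 chromosomes, for line 19 as likely) and the blastocyst-derived line 319 (Nup133merm/merm, Sox1gfp/+, 42 chromosomes, XX with extra chromosomes 8 and 12). All lines were kept on DR4 feeder fibroblasts in serum and LIF. Day 0 cells were collected from that medium after plating away from the feeders, day 2 cells from N2B27 medium lacking LIF, and day 3 cells after 24 h more with 1 µM all-trans retinoic acid. Each line is a single derivation and the 2 HM1 samples share a line, so a p-value measures the spread between these samples, which for HM1 may be technical.

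The samples carried between 16.5 M and 54.4 M gene counts, the lowest being line 19 at day 2. Levels are CPM, a gene's counts brought to a common library size after scaling with the trimmed mean of M-values (TMM). Nup133 lay between 180 and 323 CPM (median 236) in the 9 control samples and between 14.3 and 37.1 CPM (median 23.9) in the 9 knockout samples, which matches the labels. The 7 pluripotency markers summed to between 4440 and 4730 CPM in control samples at day 0, between 1330 and 1460 CPM at day 2 and between 602 and 698 CPM at day 3. In knockout samples the sums were 4990 to 6070, 1330 to 1960 and 309 to 921 CPM, and no marker was at 0. The 10 fibroblast markers summed to between 76.3 and 258 CPM over the 18 samples, none of them at 0, and their part in the results below was not tested. Line 19 at day 2 stood apart from all other samples, with short transcripts high and long ones low, so the main counts of called members are also given without it. Line 319 went against its label for chromosome 8: the median gene there lay 0.28, 0.42 and 0.38 log2 units below HM1 at days 0, 2 and 3, whereas chromosome 12 lay 0.32, 0.44 and 0.46 above it. Line 19 also had negative chromosome 8 medians against HM1 on these days, at -0.199, -0.204 and -0.334. They were -0.054, -0.058 and -0.069 in line 14 and 0.055, 0.062 and 0.048 in line 1A4.

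Of the 13 mitochondrial genes, 6 held almost no counts, and 5 of these have a near-identical annotated copy in the nuclear genome. Summed over all 72 libraries, mt-Nd3 had 1 count, mt-Nd4l 2, mt-Atp8 3, mt-Co3 6, mt-Co2 14 and mt-Atp6 16, whereas the other 7 genes were measured in every sample. The mouse reference holds a copy of mitochondrial DNA on the minus strand of chromosome 1, annotated as unprocessed pseudogenes. Along its message, mt-Co2 shared 100% of its windows of 50 bases with another annotated transcript, mt-Co3 99.9%, mt-Atp6 99.5%, mt-Nd4l 98.8% and mt-Nd3 98%. Among the measured genes the share was 62.2% for mt-Nd4, 51.1% for mt-Co1, 8.2% for mt-Nd2, 7.6% for mt-Nd5 and 0% for mt-Nd1, mt-Nd6 and mt-Cytb. The stretches below show the start of the copied part of mt-Co1, where the copy first differs and then becomes identical, and the starts of mt-Co2 and mt-Nd3 (build GRCm38, annotation GENCODE M21, 5′ to 3′, capitals mark bases that differ between gene and copy).
mt-Co1, chrM:6381-6470, plus strand: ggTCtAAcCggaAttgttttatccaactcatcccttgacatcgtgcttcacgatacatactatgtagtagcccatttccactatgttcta
Gm29216, chr1:24616108-24616197, minus strand: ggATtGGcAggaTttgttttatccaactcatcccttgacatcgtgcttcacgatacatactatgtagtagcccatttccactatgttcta
mt-Co2, chrM:7013-7102, plus strand: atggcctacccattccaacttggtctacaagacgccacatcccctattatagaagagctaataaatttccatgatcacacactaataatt
Gm28661, chr1:24615476-24615565, minus strand: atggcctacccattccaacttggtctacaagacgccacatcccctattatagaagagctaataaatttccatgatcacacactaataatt
mt-Nd3, chrM:9459-9548, plus strand: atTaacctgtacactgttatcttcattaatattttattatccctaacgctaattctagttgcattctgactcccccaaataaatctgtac
Gm28438, chr1:24613030-24613119, minus strand: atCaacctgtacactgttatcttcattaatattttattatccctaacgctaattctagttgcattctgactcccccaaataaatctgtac

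The pseudogene Gm28661 matched the first 681 of the 684 bases of mt-Co2 with 0 mismatches. Gm10925 likewise matched 678 bases of mt-Atp6, Gm28437 783 bases of mt-Co3, Gm10222 294 bases of mt-Nd4l and Gm28439 the first 876 of 1378 bases of mt-Nd4. Over 345 bases, Gm28438 differed from mt-Nd3 by the single substitution T3C (the mitochondrial base first, counted from the start of the gene). Gm29216 covered the last 492 bases of mt-Co1, with 6 mismatches in all (T1056A, C1057T, A1059G, A1060G, C1062A and A1066T), which is 98.78% identity. The copies themselves took few counts: over the 72 libraries Gm29216 held 2021, Gm28438 304, Gm28661 62, Gm10925 32, Gm28437 24, Gm28439 12 and Gm10222 10. Counts for mt-Co2 and mt-Atp6 were thus nearly absent both at the mitochondrial gene and at its copy. mt-Atp8, which encodes a small membrane subunit of complex V, shares no window with another annotated transcript. Its 204 bases overlap mt-Atp6 by 43 bases (chrM:7927-7969). mt-Atp8 starts at chrM:7766, between mt-Co2 and mt-Atp6. The copies of mt-Co2 and mt-Atp6 are neighbours on chromosome 1 (Gm28661 at 24614885-24615565, Gm10925 at 24613974-24614651). Only annotated transcripts were searched, so a copy of mt-Atp8 in the bases between them would have been missed. How reads with several equal matches were handled is not given in the sources used here, and its part in these counts was not tested. Mitochondrial totals below are therefore totals of 7 genes, none of them of complex V, and the levels of mt-Nd4 and mt-Co1 are uncertain because reads in the copied stretch may not have been counted.

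**Figure D1:**
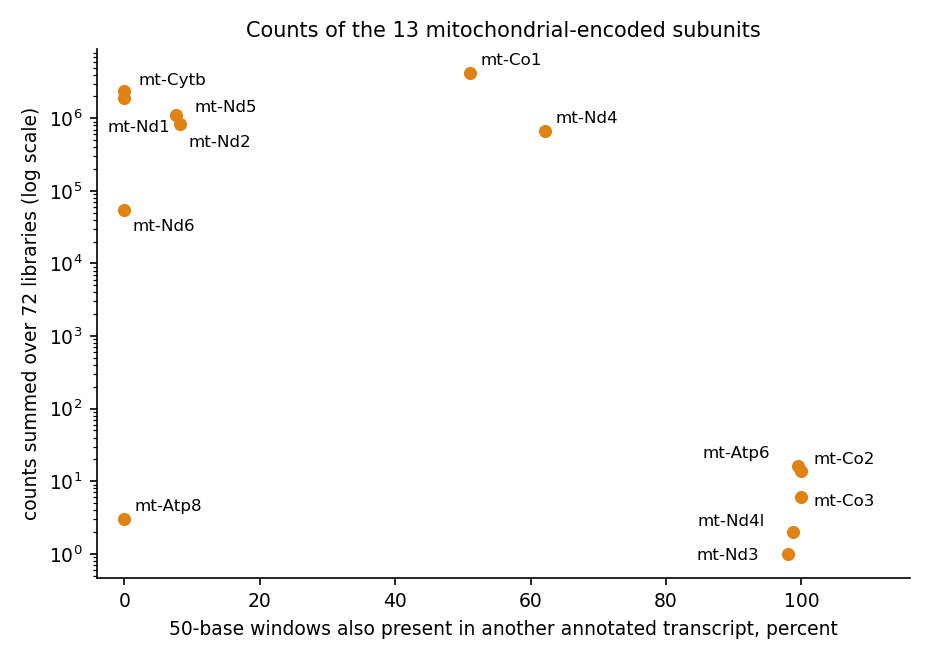
Total counts over 72 libraries (log axis) of the 13 mitochondrial genes against the percentage of their 50-base windows that also occur in another annotated transcript, 1 point per gene. The 5 genes with at least 98% of windows shared hold 16 counts or fewer, and mt-Atp8, with 0% shared, holds 3. Copies without an annotated transcript were not searched.

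Among the measured mitochondrial messages in day 0 controls, complex IV and complex I genes led per kilobase of transcript. The mean level was 6097 CPM per kilobase for mt-Co1, the catalytic core of cytochrome c oxidase, and 4962 for mt-Nd1, a membrane subunit of complex I. It was 4245 CPM per kilobase for mt-Cytb, the cytochrome b of complex III, followed by mt-Nd2 at 1799, mt-Nd5 at 1349 and mt-Nd4 at 987. mt-Nd6, the only member transcribed from the other strand, was lowest at 216 CPM per kilobase. Its end overlaps that of mt-Nd5 (chrM:13552-13565), and whether the counting used strand is not given in the sources used here.

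All 7 measured mitochondrial messages had lower fitted levels at day 2 than at day 0 in the controls, with a median log2 fold change of -0.81 against 0.01 over the 18273 genes tested. The levels of mt-Nd1 were 5142, 4844 and 4261 CPM at day 0 in HM1 replicates 1 and 2 and line 1A4, and 2360, 2444 and 2012 CPM at day 2. At day 3 they were 1772, 1806 and 1751 CPM. The 3 samples of each day did not overlap those of another day, and mt-Nd1 fell from day 0 to day 2 by 1.06 ± 0.33 (SE) on the log2 scale (edgeR quasi-likelihood test, adjusted p = 0.020). For mt-Cytb the day 0 levels were 5933, 5184 and 3454 CPM and the day 2 levels 3154, 3230 and 2227 CPM, each sample below all 3 of day 0. mt-Cytb fell by 0.76 ± 0.22 (edgeR, adjusted p = 0.016). mt-Nd4, another membrane subunit of complex I, went from 1471, 1512 and 1097 CPM to 862, 1002 and 705 CPM and fell by 0.67 ± 0.21 (edgeR, adjusted p = 0.023). These 3 are all the mitochondrial members called lower in this step, where 15.5% of all genes tested were called lower and 19.7% higher. The share of all genes whose control samples separate by day was not counted.

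The other 4 measured messages moved by like amounts but missed the threshold with all samples in the fit. mt-Co1 held 10410, 10140 and 7710 CPM at day 0 and 6139, 6618 and 5302 CPM at day 2, with no overlap and a log2 fold change of -0.65 ± 0.34 (edgeR, adjusted p = 0.15). mt-Nd5 held 2635, 2647 and 2099 CPM and then 1309, 1568 and 1314 CPM (log2 fold change -0.82 ± 0.35, edgeR adjusted p = 0.079). mt-Nd2 held 2167, 1929 and 1507 CPM and then 1088, 1157 and 936 CPM (-0.81 ± 0.38, edgeR adjusted p = 0.11). All of these are core subunits of complexes I and IV whose control samples separated by day. mt-Nd6 was more scattered, at 139, 62.4 and 135 CPM and then 69.1, 31.3 and 64.1 CPM, and the groups overlapped. Without line 19 at day 2, which enters the shared estimate of spread, mt-Nd1, mt-Nd5, mt-Nd2, mt-Cytb, mt-Nd4 and mt-Co1 all fell in the controls (adjusted p between 0.00013 and 0.010, edgeR), beside 21.9% of all genes. In bulk RNA, fewer cells of a kind and less RNA per cell cannot be told apart, and 6 of the 7 pluripotency markers fell in the same step, with a median log2 fold change of -2.72 over the list. Their part in the fall of the mitochondrial messages was not tested.

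**Figure D2:**
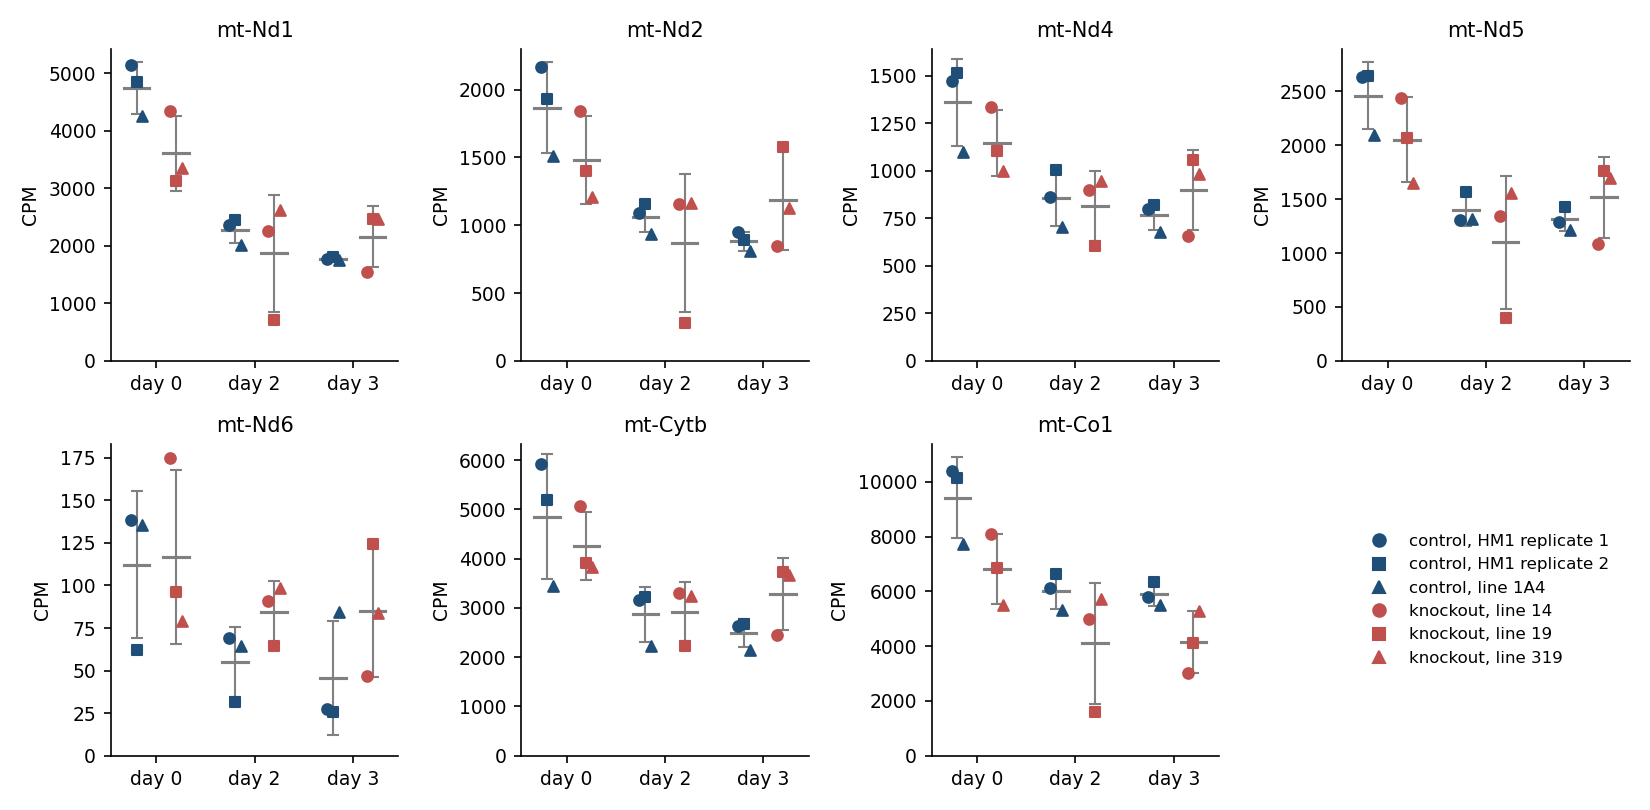
Level in CPM of the 7 measured mitochondrial messages in each of the 18 samples by day, controls and knockouts marked apart. In the controls the day 2 samples of mt-Nd1, mt-Cytb, mt-Nd4, mt-Co1, mt-Nd5 and mt-Nd2 all lie below the day 0 samples, and line 19 at day 2 lies below the other knockout lines in each panel.

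In the knockouts the 3 lines differed from each other in this step. mt-Nd1 was at 4349, 3123 and 3358 CPM at day 0 and at 2267, 715 and 2632 CPM at day 2 in lines 14, 19 and 319. It was the only mitochondrial member called, falling by 0.96 ± 0.33 (edgeR, adjusted p = 0.033) with all samples and by 0.54 ± 0.19 (adjusted p = 0.031) without line 19 at day 2. The fitted day 2 minus day 0 change of all 7 messages was negative, with a median of -0.74, and of -0.32 without that sample. Line by line the median over the 7 was -0.70 in line 14, -2.11 in line 19 and -0.08 in line 319, beside -0.99, -0.74 and -0.68 in HM1 replicates 1 and 2 and line 1A4. In line 319, 5 of the 7 were lower at day 2 and 2 were higher. The change of the genotype difference between day 0 and day 2 was called for 0 of the 7 (edgeR; unadjusted p below 0.05 for 0, DESeq2 0), so the step is not shown to differ between genotypes.

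From day 2 to day 3, with retinoic acid, no mitochondrial message was called in either genotype (edgeR; unadjusted p below 0.05 for 0 in controls and 0 in knockouts, DESeq2 0 in both). The median log2 fold change was -0.20 in controls and 0.17 in knockouts, or -0.07 in knockouts without line 19 at day 2. In line 19 all 7 messages were higher at day 3 than at day 2, with mt-Nd1 going from 715 to 2461 CPM. At day 3 the 7 had a median log2 difference from controls of -0.205, 0.46 and 0.48 in lines 14, 19 and 319. Each line was set against controls of its background, and 1, 6 and 5 of the 7 were higher. mt-Co1 is the message whose knockout levels lay lowest against controls at day 3: 3034, 4122 and 5299 CPM against 5803, 6354 and 5496 CPM. These groups did not overlap, and the difference did not pass the test (log2 fold change -0.51 ± 0.34, edgeR adjusted p = 0.41), beside 2.44% of all genes called lower. mt-Co1 was picked as the lowest of the 7, and the share of all genes whose groups do not overlap was not counted. Without line 19 at day 2 the difference in mt-Co1 was -0.51 ± 0.18 (edgeR, adjusted p = 0.070), beside 7.91% of all genes called lower.

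Summed over members, the mitochondrial messages took between 0.473% and 2.47% of a sample's gene counts and the nuclear ones between 0.831% and 1.65%. In the controls the mitochondrial share was 2.47%, 2.39% and 1.91% at day 0, 1.56%, 1.66% and 1.29% at day 2, and 1.51%, 1.62% and 1.35% at day 3. The nuclear share moved less, with means of 1.09% ± 0.02 (SD, n = 3), 0.989% ± 0.026 and 0.971% ± 0.028. The ratio of mitochondrial to nuclear counts was accordingly 2.07 ± 0.25 at day 0, 1.52 ± 0.20 at day 2 and 1.55 ± 0.18 at day 3 in the controls (SD, n = 3). It is a ratio of 7 measured mitochondrial to 84 nuclear genes and says nothing of the messages that were not counted.

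At day 0 the knockouts had the lower ratio. Lines 14, 19 and 319 were at 1.68, 1.43 and 1.31, below HM1 replicates 1 and 2 and line 1A4 at 2.27, 2.16 and 1.79, and the groups did not overlap. Both parts of the ratio contributed: the mitochondrial share was 2.03%, 1.64% and 1.56%, overlapping the lowest control, while the nuclear share was 1.206%, 1.141% and 1.191%, above all 3 controls. The ratio had an SD of 0.189 in knockouts and 0.251 in controls. As a score over the members it was given no test, and how often other sums separate by genotype was not counted. The single-gene test called 0.854% of all genes between genotypes at day 0, and no member. At day 2 the knockout ratios were 1.38 in line 14, 0.288 in line 19 and 1.54 in line 319, within or below the control range of 1.31 to 1.72. Without line 19 the knockout mean was 1.46. At day 3 they were 1.17, 1.95 and 1.69, a spread that covered all control values (1.35 to 1.69).

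**Figure D3:**
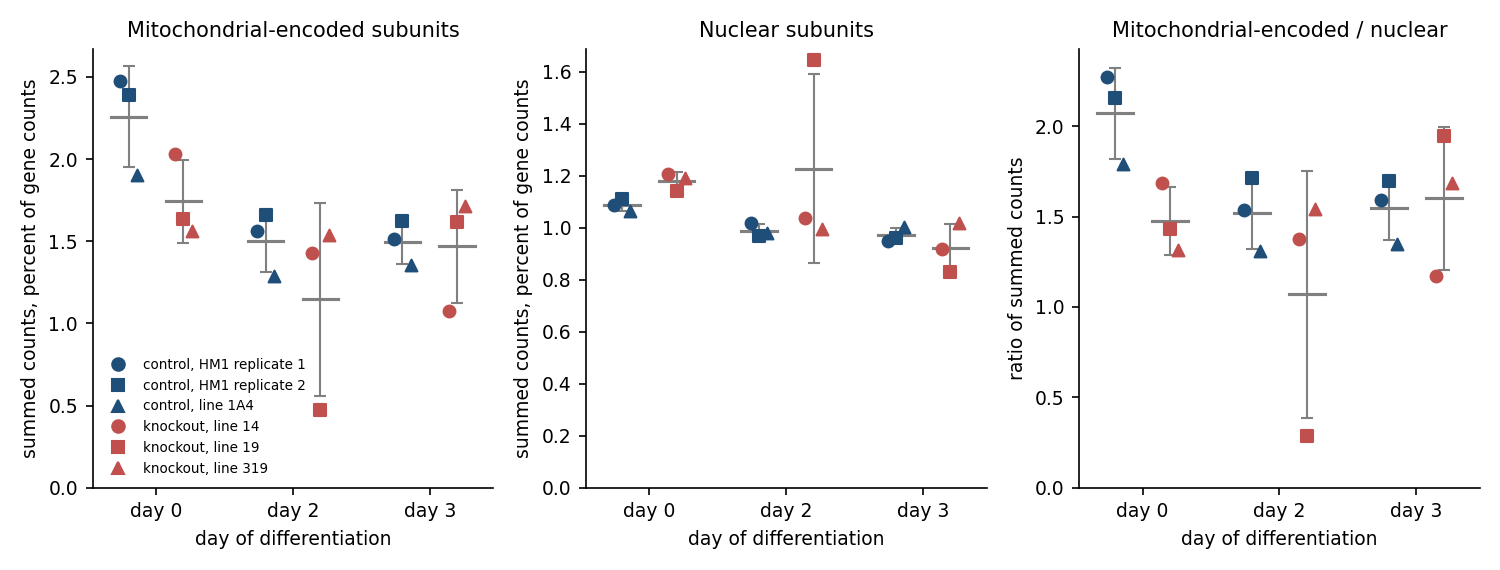
Mitochondrial members' share of gene counts, nuclear members' share (both in percent) and the ratio of the first to the second, for each of the 18 samples by day and genotype; grey bars are group means with SD (n = 3). At day 0 all 3 knockout ratios lie below all 3 control ratios, and line 19 at day 2 has the lowest ratio (0.288) and the highest nuclear share (1.65%).

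Of the 84 nuclear members, 81 had enough counts to be tested, and their levels per length spanned a wide range. In day 0 controls the 73 members represented by a coding transcript had a median of 74.2 CPM per kilobase in complex I, 96.6 in complex II, 89.5 in complex III, 71.0 in complex IV and 185 in complex V. Atp5b, the catalytic beta subunit of ATP synthase, was highest at 1270 CPM per kilobase, and Cox4i1, the regulatory subunit of cytochrome c oxidase that every tissue carries, held 624. The remaining 11 members were represented by a transcript of another type, 7 by a retained intron, 3 by a processed transcript and 1 by a transcript subject to nonsense-mediated decay, since that transcript had the most counts. Their values track reads of the gene but not a protein-coding message alone. Uqcrc1, a core subunit of complex III, held 17 counts in all 72 libraries although none of its windows is shared with another gene; why was not tested. Ndufs5, with 31.1% of windows shared, was lowest of complex I at 0.288 CPM per kilobase. In all, 10 of the 84 nuclear members shared at least 25% of their windows with another annotated transcript, led by Atp5l (68.5%) and Atp5h (47.9%), and their levels are uncertain.

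Alternative subunits were present at levels far below those of their partners. In day 0 controls Cox4i1 lay at 460, 467 and 505 CPM, whereas Cox4i2, its hypoxia-responsive counterpart, lay at 0.546, 0.481 and 1.08 CPM. Cox6a1 held 134, 141 and 109 CPM, and Cox6a2, the heart and skeletal muscle form, between 0 and 0.0961 CPM. Cox7a2 held 137, 128 and 114 CPM, against 4.52, 5.17 and 3.15 CPM for the muscle form Cox7a1. Cox8a was at 140, 137 and 87.8 CPM, while Cox8b had 3 counts and Cox8c 89 counts over all libraries. The testis form Cox6b2 was the least rare of these, at 29.04, 29.63 and 13.01 CPM beside Cox6b1 at 149, 146 and 131 CPM. It was also the member above 1 CPM with the highest genotype difference at day 0: knockout lines 14, 19 and 319 held 55.4, 41.4 and 14.6 CPM (log2 fold change 0.61 ± 0.41, edgeR adjusted p = 0.71). The high values were those of the HM1-derived lines, 14 and 19, and line 319 lay beside its own background control 1A4.

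From day 0 to day 2 few nuclear subunits passed the test in the controls. Of 81 members tested, 7 (8.64%) fell and 2 rose, shares below the 15.5% and 19.7% of all genes tested, and the median log2 fold change was -0.27 against 0.01 over all genes. Cox5a, a nuclear subunit of complex IV, went from 202, 214 and 218 CPM to 128, 120 and 129 CPM. The groups were far apart and Cox5a fell by 0.75 ± 0.27 (edgeR, adjusted p = 0.042). Uqcrb, a small subunit of complex III, went from 77.0, 80.4 and 91.7 CPM to 48.1, 46.2 and 56.8 CPM and fell by 0.72 ± 0.20 (edgeR, adjusted p = 0.012). Atp5b went from 2478, 2459 and 2365 CPM to 1740, 1767 and 1838 CPM, a fall of 0.45 ± 0.15 (edgeR, adjusted p = 0.026). Atp5c1, the central-stalk gamma subunit of ATP synthase, fell by 0.42, Ndufs1, the largest iron-sulfur subunit of complex I, by 0.39, Uqcrfs1, the Rieske protein of complex III, by 0.38, and Sdhd, a membrane anchor of complex II, by 0.36 (edgeR, adjusted p between 0.024 and 0.035). In each of these 4 genes the 3 day 2 samples lay below the 3 day 0 samples. The genes were called on these same values, and the share of all genes that separate this way was not counted. Counting both genomes, this step has 12 called members with all samples, and 1, 2 and 2 when HM1 replicate 1, HM1 replicate 2 or line 1A4 was left out at all days.

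Both genes that rose in this step are peripheral or tissue-restricted. Atp5s, a coupling factor associated with ATP synthase, went from 3.51, 2.81 and 4.39 CPM to 7.57, 7.30 and 9.27 CPM in controls, which was 2.27-fold (log2 1.18 ± 0.21, edgeR adjusted p = 0.00052). In knockouts it went from 3.36, 3.25 and 5.77 CPM to 6.08, 6.41 and 9.29 CPM and rose by 0.83 ± 0.21 (edgeR, adjusted p = 0.0066). Cox6a2 also passed in both genotypes (edgeR, adjusted p = 0.012 and 0.0066), at levels of 0 to 0.0961 CPM at day 0 and 0.18 to 0.444 CPM at day 2. With so few counts at day 0 its fitted fold change depends on the prior count and is not given.

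Without line 19 at day 2 the controls' own values were the same, and the fit made more calls. In that fit 32 of 82 nuclear members fell and 3 rose between day 0 and day 2, beside 21.9% and 24.3% of all genes. The falls counted 9 of 37 in complex I, 1 of 4 in complex II, 5 of 7 in complex III, 8 of 17 in complex IV and 9 of 17 in complex V. After Cox5a and Uqcrb, they were led by Atp5g1 (-0.62), which encodes the c-ring of ATP synthase, and Ndufa11 (-0.59), an accessory subunit of complex I. Ndufa13, another accessory subunit of complex I, joined Atp5s and Cox6a2 among those that rose (log2 0.46 ± 0.17, edgeR adjusted p = 0.032).

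In the knockouts the calls of this step turned on line 19. With all samples, Ndufs1 (-0.51) and Uqcrc2 (-0.31), a core subunit of complex III, fell, and Ndufa13, Ndufa6, Atp5s and Cox6a2 rose, beside 15.1% lower and 20.8% higher among all genes. The call of Ndufa13 rested on 1 sample, although all 3 lines were higher at day 2. Lines 14, 19 and 319 held 84.9, 72.1 and 61.4 CPM at day 0 and 107, 289 and 62.6 CPM at day 2. Without line 19 at day 2 the change was 0.25 ± 0.185 (edgeR, adjusted p = 0.3). The call of Ndufa6, an accessory subunit of complex I, rested on the same sample, with 57.4, 57.2 and 42.2 CPM and then 69.9, 171 and 44.8 CPM. With each series kept as a block, the 7 calls of this step became 4, and there were 2, 34 and 19 without line 14, 19 or 319 and 3, 3 and 4 without each control series. Neither Ndufa13 nor Ndufa6 was called in knockouts once line 19 at day 2 was left out. In that fit mt-Nd1 and 35 nuclear members fell and Atp5s and Cox6a2 rose, beside 17.7% and 21.3% of all genes, and the nuclear median turned from 0.21 to -0.30. Cox5a again led with a fall of 0.95 ± 0.09 (edgeR, adjusted p = 2.9e-06), its knockout levels going from 269, 248 and 240 CPM to 127 CPM in line 14 and 136 CPM in line 319, against 352 CPM in line 19. Next came Atp5g1 (-0.92), Ndufb10 (-0.91, a complex I subunit represented by a retained-intron transcript) and Uqcr10 (-0.70, a small subunit of complex III represented by a processed transcript).

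Of the 38 members that fell in the controls and the 36 that fell in the knockouts in these fits without line 19 at day 2, 28 were the same genes, which is 73.7% of the first list and 77.8% of the second. Over all genes tested, 4135 fell in the controls and 3348 in the knockouts, and 2714 were shared, which is 65.6% and 81.1%. The 28 shared members include mt-Nd1, Cox4i1, Cox5a, Uqcrb, Uqcrfs1, Ndufs1, Ndufv1, Atp5b, Atp5c1 and Atp5g1. The genotypes' samples are separate here, but the overlap was not tested. The change of the genotype difference from day 0 to day 2 was called for 0 of 82 nuclear members in this fit (edgeR, beside 0.037% of all genes, all higher). The unadjusted p was below 0.05 for 2, beside 8.3% of all genes. With all samples the change was called for 0 of 81 (edgeR, DESeq2 0, beside 0.0219% of all genes, all higher). The unadjusted p was then below 0.05 for 1, beside 7.16% of all genes.

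**Figure D4:**
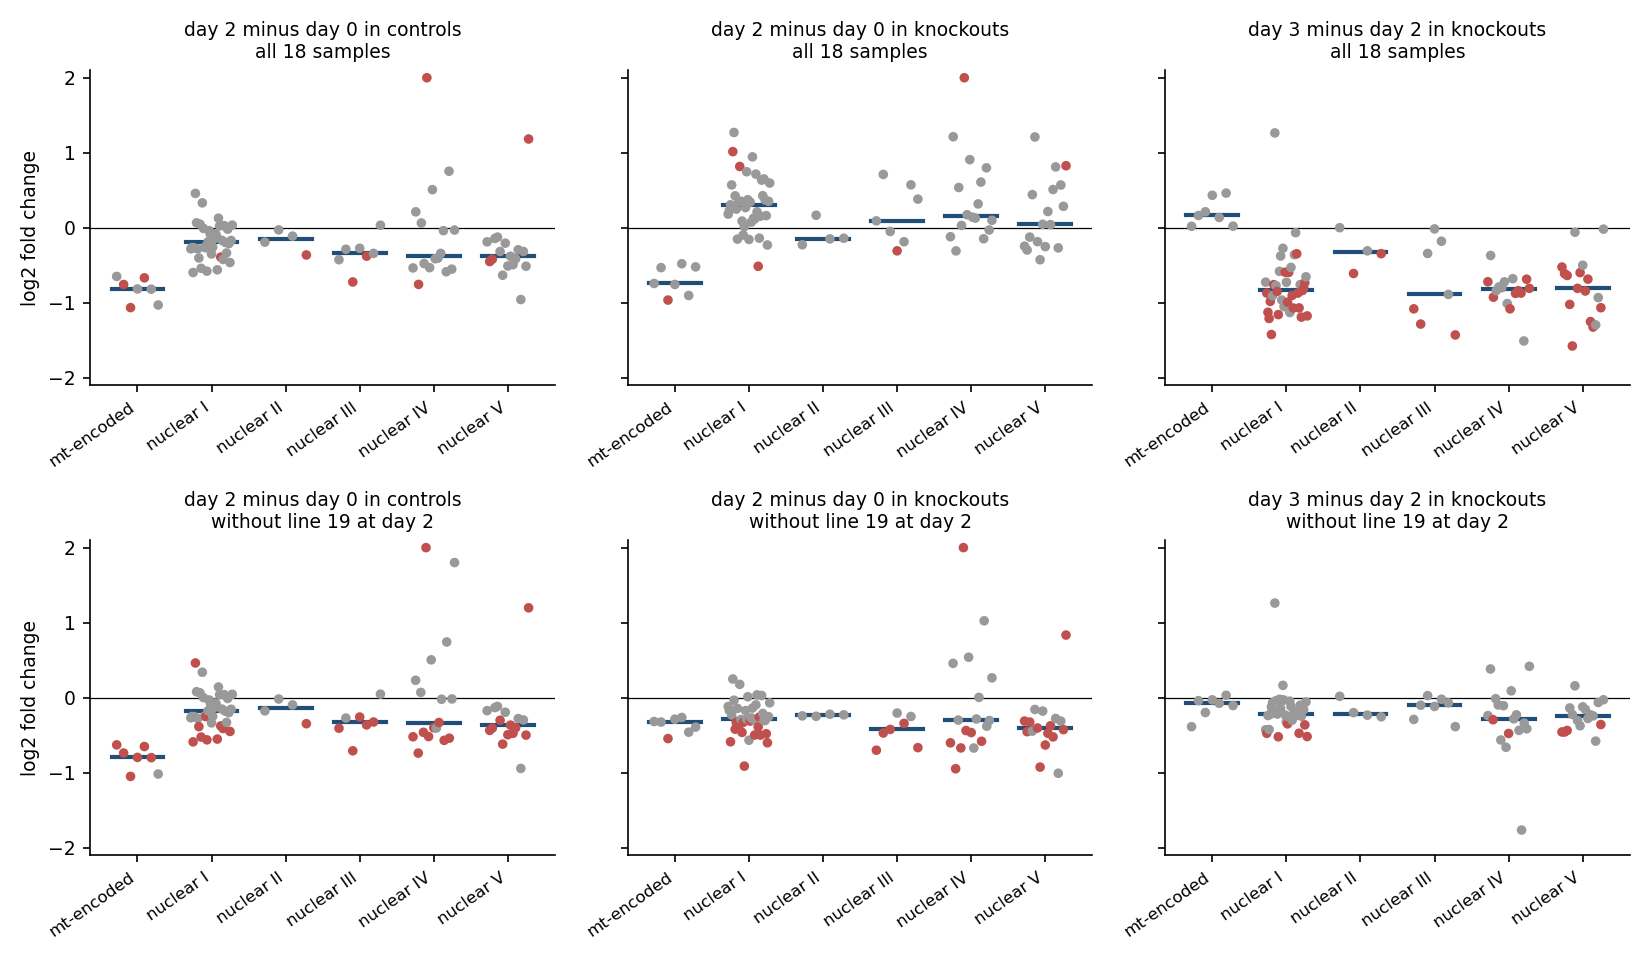
Log2 fold changes of the tested members by complex for 3 contrasts, with all samples and without line 19 at day 2; red points passed adjusted p below 0.05 and blue bars are medians. The knockout step from day 2 to day 3 has 46 called nuclear members with all samples and 12 without line 19 at day 2; values beyond 2 in either direction, those of Cox6a2, are drawn at 2.

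From day 2 to day 3 the controls called 1 member, beside 21.4% of all genes (8.92% lower). Atp5a1, the alpha subunit of ATP synthase, went from 1299, 1250 and 1273 CPM to 989, 971 and 973 CPM and fell by 0.38 ± 0.11 (edgeR, adjusted p = 0.024). The samples within each day lay close together and the days were well apart. With each series kept as a block there were 2 calls, and none when HM1 replicate 1, HM1 replicate 2 or line 1A4 was left out. Without line 19 at day 2, 10 nuclear members fell in the controls, beside 15.1% of all genes: 5 of complex V (Atp5a1, Atp5b, Atp5c1, Atp5g1 and Atp5o), 3 of complex I (Ndufv3, Ndufs4 and Ndufa10) and 2 of complex IV (Cox6c and Cox6a2). Cox6a2 returned to between 0.026 and 0.167 CPM.

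In the knockouts 46 nuclear members and no mitochondrial member fell from day 2 to day 3 with all samples, beside 16.0% of all genes called lower. The largest falls were those of Atp5e (-1.57 ± 0.50), the epsilon subunit of ATP synthase, Uqcrq (-1.43 ± 0.45), a small subunit of complex III, and Ndufa2 (-1.42 ± 0.49), an accessory subunit of complex I (edgeR, adjusted p between 0.024 and 0.035). Among these, Atp5e was represented by a transcript of a type other than protein-coding. Atp5e stood at 110, 577 and 83.2 CPM in lines 14, 19 and 319 at day 2 and at 90.5, 68.5 and 91.0 CPM at day 3. Line 14 was lower and line 319 higher at day 3, and the fall was that of line 19. With each series kept as a block 19 members were called, and 14, 14 and 26 when HM1 replicate 1, HM1 replicate 2 or line 1A4 was left out at all days. Without line 19 at day 2, 12 of the 46 fell and no others, beside 14.9% of all genes: Ndufa7, Ndufv3, Ndufa10, Ndufs4, Ndufv1 and Ndufb5 of complex I, Cox6c and Cox5a of complex IV, and Atp5b, Atp5a1, Atp5c1 and Atp5o of complex V. Atp5a1, for example, went from 1257 and 1250 CPM in lines 14 and 319 to 928 and 972 CPM (log2 fold change -0.46 ± 0.08, edgeR adjusted p = 0.00088). Atp5b went from 1963 and 1975 CPM to 1465 and 1597 CPM (-0.46 ± 0.11, edgeR adjusted p = 0.0060). The change of the genotype difference between day 2 and day 3 was called for 0 of 81 nuclear members (edgeR, DESeq2 0). Of all genes 0.0383% were called, 0.0274% higher and 0.0109% lower. The unadjusted p was below 0.05 for 12 members, all lower, beside 8.9% of all genes (edgeR). Without line 19 at day 2 the change was called for 0 of 82, beside 0.0635% of all genes (edgeR). The unadjusted p was then below 0.05 for 0, beside 7.5% of all genes.

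Between genotypes, no member of either genome was called at any day with all samples (edgeR), beside 0.854% of all genes at day 0 (0.0657% higher, 0.788% lower), 1.6% at day 2 (0.635% higher, 0.963% lower) and 5.19% at day 3 (2.75% higher, 2.44% lower). At day 0 the unadjusted p was below 0.05 for 0 of 88 members (edgeR, beside 10.6% of all genes) and DESeq2 called 0. The median log2 fold change was -0.26 over the mitochondrial and 0.15 over the nuclear members, against 0.01 over all genes, and 66 of 81 nuclear members had a positive value. The mitochondrial median was negative in each knockout line against controls of its own background, at -0.15, -0.51 and -0.34 in lines 14, 19 and 319. The nuclear one was positive, at 0.09, 0.06 and 0.16. Lines 14 and 19 share their HM1 controls and line 319 has line 1A4 alone, so these are not independent comparisons. Without line 19 at day 2, Cox6c, a small membrane subunit of complex IV represented by a retained-intron transcript, was higher in the knockouts at day 0 by 0.39 ± 0.09 (edgeR, adjusted p = 0.040), beside 0.312% of all genes called higher. Its levels were 119, 110 and 117 CPM in controls and 147, 131 and 177 CPM in knockouts, with no overlap. The share of all genes without overlap at day 0 was not counted.

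At day 2 the nuclear median was 0.62 higher in the knockouts with all samples, with 46 of 81 nuclear members at an unadjusted p below 0.05 (edgeR, beside 20.4% of all genes), 19 called higher by DESeq2 and a smallest adjusted p of 0.051 in edgeR. Line 19 had the high values: its nuclear median against HM1 was 1.29, beside 0.07 in line 14 and 0.04 in line 319 against their own controls. Without that sample the nuclear median was 0.08, the mitochondrial median 0.15, and no member was called (edgeR, beside 2.08% of all genes, 0.878% higher and 1.21% lower; unadjusted 11 higher and 3 lower of 82, beside 17.6% of all genes). With all days of line 14 or of line 319 left out, 9 and 23 members were called. The shares of all genes called in these fits and by DESeq2 are not given here.

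At day 3 with all samples, the unadjusted p was below 0.05 for 1 nuclear member higher and 1 lower (edgeR, beside 21.9% of all genes), and DESeq2 called 0. Without line 19 at day 2, 5 nuclear members were lower and 2 higher in the knockouts, beside 7.91% and 7.92% of all genes. Uqcrq stood at 60.9, 58.6 and 73.5 CPM in controls and 44.0, 27.4 and 46.8 CPM in knockouts (log2 fold change -0.71 ± 0.22, edgeR adjusted p = 0.040). Ndufa6 stood at 72.7, 74.6 and 79.1 CPM against 54.5, 44.9 and 51.2 CPM (-0.60 ± 0.14, edgeR adjusted p = 0.014). Both genes had every knockout sample below every control sample, and the share of all genes that separate this way was not counted. Ndufa7 (-0.55), Uqcr10 (-0.53) and Sdhb (-0.31), the iron-sulfur subunit of complex II, were also lower. Uqcrb was higher, at 57.7, 72.8 and 75.9 CPM against 50.4, 47.3 and 59.2 CPM (0.39 ± 0.10, edgeR adjusted p = 0.022), and its samples overlapped since line 14 lay below line 1A4. Cox7c, a small subunit of complex IV, was higher by 0.48 ± 0.15 (edgeR, adjusted p = 0.038) with overlapping samples, at 66.8, 58.3 and 80.6 CPM against 43.5, 37.5 and 67.6 CPM. Within complex III, members thus differed in sign, with Uqcrq and Uqcr10 lower and Uqcrb higher. Uqcrb and Cox7c share 43.2% and 27.9% of their windows with other transcripts, which makes their levels uncertain.

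In line 19 at day 2 the members of the 2 genomes parted. Against the mean of lines 14 and 319 on the log2 scale, 76 of 81 nuclear members were higher, with a median of 1.27, and all 7 mitochondrial members were lower, with a median of -1.75. Over all genes, the fitted slope in this sample was -0.286 log2 units per doubling of transcript length, against -0.066 to 0.076 in the other 17 samples. Nuclear members are short, with a median transcript of 849 bases against 2761 over the genes tested. Among those with a coding transcript, the median difference was 1.23 for the 54 under 1500 bases and 0.77 for the 16 of 1500 bases or more, and it was 1.98 for the 11 with another transcript type. The 5 members below 0 were Cox7b2 (-1.21, 542 bases), Ndufs1 (-0.38, 2661 bases), Uqcrc2 (-0.31, 1896 bases), Ndufa4l2 (-0.25, 934 bases) and Atp5s (-0.22, 1485 bases), so short and long transcripts were both among them. Some members represented by a long annotated coding transcript were also high, with Ndufb2 at 2.11 (4371 bases) and Atp5g1 at 1.26 (4715 bases). These lengths are those of the annotated transcript with the most counts. Reads were counted for every transcript they overlap, so the message present may have another length.

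The mitochondrial messages did not follow length in this sample. mt-Nd2 was 4.16-fold lower than the mean of lines 14 and 319, mt-Nd5 3.65-fold, mt-Nd1 3.43-fold and mt-Co1 3.37-fold. mt-Nd4, mt-Cytb and mt-Nd6 were 1.53-, 1.47- and 1.47-fold lower. The strongly lowered group holds both a short message, mt-Nd1 of 957 bases, and the longest, mt-Nd5 of 1824 bases. With 1 sample there is no test of these folds, and neither the depth of this sample nor the length slope was tested as their source.

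**Figure D5:**
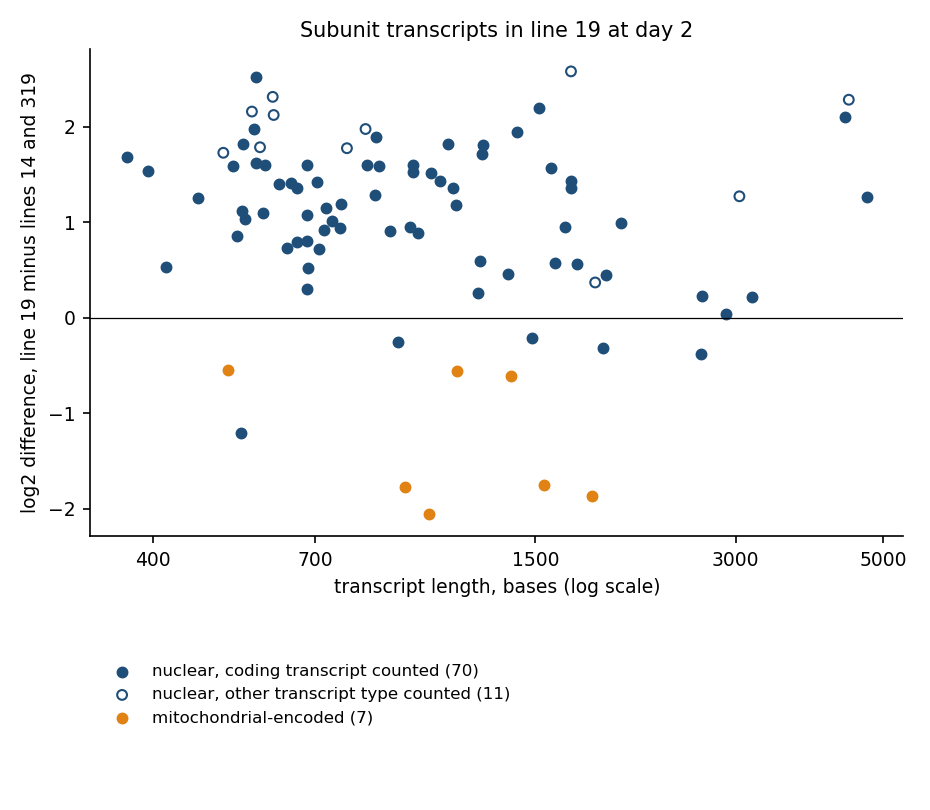
Difference in log2 CPM between line 19 and the mean of lines 14 and 319 at day 2, against transcript length in bases (log axis), 1 point per member; open points are nuclear members represented by another transcript type. The nuclear members lie mostly above 0 and the 7 mitochondrial members below it.

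Some members sit on chromosomes whose copy number differs between lines per the labels. Ndufa1, Ndufb11 (both accessory subunits of complex I) and Cox7b (complex IV) lie on the X chromosome. The XX line 319 held 92.4, 134 and 369 CPM of them at day 0, against 29.7, 60.8 and 198 CPM in the XY line 1A4 of its background, and the other samples of day 0 lay between 39.6 and 41.3, 70.5 and 77.2, and 193 and 225 CPM. Over days 0, 2 and 3 the median log2 difference of the 3 genes was 1.13, 0.86 and 0.81, beside 0.62, 0.48 and 0.43 over all X-linked genes tested. Atp5mpl and Atp5s on chromosome 12 had medians of 0.43, 0.36 and 0.32. Cox4i1, Ndufa13 and Ndufb7 on chromosome 8, labelled as present in an extra copy, had medians of -0.08, -0.63 and -0.56, beside -0.32, -0.49 and -0.45 over that chromosome. The 73 other nuclear members had medians of 0.16, 0.04 and -0.001. The 3 X-linked members in lines 14 and 19, knockouts labelled XY, lay at or near HM1 at day 0, and the higher level was that of line 319. In line 319 itself the karyotype, the allele and the line cannot be told apart.

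Promoters were searched for motifs of factors known to act on nuclear genes for mitochondrial proteins, as a description of the members' starts. RefSeq gave 73 promoters of 300 bases for 68 of the 84 nuclear members (GRCm38.p6, 250 bases before to 50 after the start). The NRF1 motif, read as GCGC, any base and TGCGC, occurred on either strand in 24.7% of them and in 4.60% of all 32851 promoters of that length. YY1 (AAGATGGC) occurred in 13.7% and 2.70%, ETS (ACTTCCGG) in 6.80% and 3.90%, and SP1 (GGGGCGGGG) in 16.4% and 11.4%. A match describes letters only, and no factor binding was measured. Of the nuclear genes that fell in the controls with all samples, Sdhd and Atp5c1 have an NRF1 match, shown in capitals within the 250 bases before the start.
Sdhd, chr9:50603850-50604099, minus strand: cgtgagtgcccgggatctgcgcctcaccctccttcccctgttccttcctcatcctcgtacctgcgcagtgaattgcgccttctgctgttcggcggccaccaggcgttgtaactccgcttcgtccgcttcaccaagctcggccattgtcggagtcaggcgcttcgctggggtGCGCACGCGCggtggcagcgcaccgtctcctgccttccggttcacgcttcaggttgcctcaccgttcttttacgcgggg
Atp5c1, chr2:10080433-10080682, minus strand: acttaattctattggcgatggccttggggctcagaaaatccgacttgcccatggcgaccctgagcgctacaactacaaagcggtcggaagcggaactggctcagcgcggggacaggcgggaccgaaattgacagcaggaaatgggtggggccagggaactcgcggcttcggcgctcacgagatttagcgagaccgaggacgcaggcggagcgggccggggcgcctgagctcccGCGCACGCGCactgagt

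The match lies 79 to 70 bases before the start in Sdhd and 17 to 8 bases before it in Atp5c1. RefSeq lists another start for Atp5c1, whose window (chr2:10080461-10080760) has no match. Cox5a, Atp5b and Uqcrfs1, which fell in the same step, have no match in their windows, and Uqcrb and Ndufs1 were not matched to a RefSeq promoter.

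Genes around the complexes were read from lists, and their counts stand beside the share of all genes. From day 0 to day 2 in the controls, 15.5% of all genes were called lower and 19.7% higher, or 21.9% and 24.3% without line 19 at day 2. Of 24 genes for the upkeep, transcription and processing of mitochondrial DNA and RNA, 9 fell and 0 rose in this step, or 11 and 0 without that sample. They were led by Grsf1 (-1.12), an RNA-binding protein of mitochondrial granules, Tfb2m (-0.93), a transcription initiation factor, and Elac2 (-0.93), which cuts transfer RNAs from the precursor. Of 77 mitochondrial ribosomal protein genes tested, 12 fell, or 39 without that sample. Of 48 assembly factors tested, 4 fell and 2 rose, shares below those of all genes, or 11 and 9 without that sample. Lyrm7, an assembly factor of complex III, rose by 1.06 ± 0.29 (edgeR, adjusted p = 0.0099). Of 13 genes of the tricarboxylic acid cycle 1 fell and 2 rose, or 2 and 2 without it, and of 9 nuclear regulators 2 fell and 2 rose, or 3 and 2.

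In the knockouts, 8 of the 24 genes for mitochondrial DNA and RNA fell from day 0 to day 2, or 7 without line 19 at day 2, beside 15.1% and 17.7% of all genes. Polrmt, the mitochondrial RNA polymerase, fell by 0.89. From day 2 to day 3, 7 of the 24 fell in the controls, or 11 without that sample, beside 8.92% and 15.1% of all genes, among them Lrpprc (-0.81), which stabilizes mitochondrial messages. In the knockouts 47 of 77 mitochondrial ribosomal protein genes fell in this step, or 30 without that sample, beside 16.0% and 14.9% of all genes. In the controls 5 of the 77 fell, or likewise 30 without that sample, beside 8.92% and 15.1% of all genes. Of 81 cytosolic ribosomal protein genes 78 fell in the knockouts, or 17 without that sample, and 1 fell in the controls, or 5 without it.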

How the data were processed

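Each library has a deposited table of raw counts by Ensembl transcript. Per the submitters' processing notes, bcl2fastq 2.17.1.14, STAR 2.4.0k, SAMtools and HTSeq were used with mm10. Per the labels, libraries were polyA-selected and stranded; use of strand in counting is not given in the sources used here. Reads had been counted for every transcript they overlap, so each gene was represented by its transcript with the highest total, named from GENCODE M21 (108214 of 110379 identifiers matched; the rest held 1.44% to 2.48% of counts and were left out), and 4 technical libraries were summed per sample. edgeR 4.0.16 (R 4.3.3, limma 3.58.1) fitted 6 groups and background on 18273 genes kept by filterByExpr, with TMM, robust quasi-likelihood tests and Benjamini-Hochberg adjustment over all genes, called below 0.05; DESeq2 1.42.0 was an alternative. Percentages are of unscaled gene counts. A fit of simulated knockout and control samples at day 3 recovered 49% of genes changed by 1 log2 unit and 95% changed by 2 (4 false among 148 calls). Each line was followed over the days, so samples pair by line; 15 of 18 pair correlations of deviations exceeded 0.1. The members and lists were chosen with earlier results of these data known. By rule, the members named were all mitochondrial ones, up to 10 called per comparison by fold change or else the extremes, and alternative subunits with their partners. Genes given by sample, further names from the overlap, and Uqcrc1, Ndufs5, Ndufb2 and Cox7b2 were chosen after their values were seen.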

Additional observations from a re-analysis of the deposited data

How the results depend on the processing

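Counts of called members moved under most settings. Apart from the fit without line 19 at day 2, the shares of all genes called are not given for these settings, here or above. Their counts alone describe only how the calls depend on processing. Between genotypes, where the value with all samples is 0 at each day, leaving that sample out gave 1 call at day 0, 0 at day 2 and 7 at day 3. At day 2 there was 1 call with DESeq2 size factors, 19 with DESeq2, 1 with no filter on low counts, 2 with HM1-derived lines alone, 1 with a length trend as an offset and 1 with the longest transcript of each gene. At day 3 there were 2 with HM1-derived lines alone, 2 with the length offset and 6 with the day fitted alone. Leaving out each series in turn gave 0 to 23 calls at day 2 and 0 to 1 at day 3. The cause of these changes was not tested.

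In the controls, the 12 calls from day 0 to day 2 became 6 with no filter, 41 without line 19 at day 2, 2 with HM1-derived lines alone, 31 with the length offset, and 1 to 41 when each series was left out. The 1 call from day 2 to day 3 became 0 with no filter, 10 without line 19 at day 2, 0 with HM1-derived lines alone, 4 with the length offset, and 0 to 11 when each series was left out. In the knockouts, the 7 calls from day 0 to day 2 became 11 with DESeq2, 3 with no filter, 38 without line 19 at day 2, 12 with HM1-derived lines alone, 20 with the length offset, and 2 to 34 when each series was left out. The 46 calls from day 2 to day 3 became 12 without line 19 at day 2, 19 with the length offset, and 10 to 66 when each series was left out. In that step Atp5d lay between -1.503 and 0.038 and Uqcr11 between -1.787 and 0.002 when each series was left out, positive without line 19 at all days.

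With each series kept as a replicate block, the calls were 13 and 2 for the controls' steps and 4 and 19 for the knockouts'. With the block and without line 19 at day 2, an alternative chosen after seeing the data, they were 43, 13, 41 and 13. The block between genotypes (limma-voom, within-series correlation 0.009) called 0 members at each day. Own-series samples correlated best in 12 of 18 pairs, and the correlations lay between -0.129 and 0.476.

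The nuclear median between genotypes was 0.097 at day 0 and 0.035 at day 3 with the length offset, against 0.15 and -0.08, and lay between -0.135 and 0.029 at day 3 when each series was left out. Medians of the mitochondrial members and ratios of group means moved by less than the spread between samples in every setting run. For knockouts at day 2 that spread includes line 19, so the comparison cannot show that their values are stable. The knockout ratio at day 2 was 1.07 ± 0.68 (SD, n = 3) with all samples and 1.46 ± 0.12 (n = 2) without line 19. The mitochondrial median between genotypes at day 2 lay between -0.66 and 0.14 when each series was left out. Of 66 single-gene calls, 34 were lost with the length offset, 32 with the block, 37 without line 19 at day 2 and 0 with DESeq2. Leaving out HM1 replicate 1, HM1 replicate 2 or line 1A4 lost 48, 47 and 36, and leaving out line 14, 19 or 319 lost 20, 38 (with 2 more reversed) and 1. Genes not tested for low counts were mt-Nd3, mt-Nd4l, mt-Co2, mt-Co3, mt-Atp6, mt-Atp8, Uqcrc1, Cox8b and Cox8c.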
